A study of Mus musculus with 6 samples.

Results

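The genes described here encode the subunits of respiratory complexes II, III, IV and V that are made from nuclear genes. They were chosen by name, as a list of succinate dehydrogenase, cytochrome bc1, cytochrome c oxidase and ATP synthase genes with cytochrome c and 5 factors that build complex IV. All 46 listed genes were found among the 23276 gene symbols of the deposited table. They comprised 4 genes of complex II, 9 of complex III, 12 of complex IV, 15 of complex V, the electron carrier *Cycs* and the 5 complex IV factors.

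Total kidney RNA was sequenced from 6 mice at postnatal day 22. The *Pkd1* F/RC SKO group (single knockout, n = 3) carried KspCre with a floxed *Pkd1* allele and the hypomorphic RC allele of *Pkd1*. The *Pkd1* F/RC DKO group (double knockout, n = 3) carried these alleles and also a floxed miR-17~92 cluster. KspCre places Cre under the promoter of *Cdh16*, a cadherin of kidney tubule cells, so the other cells of the organ kept their floxed alleles, while the RC allele was present in every cell. The deposited table gave each transcript 1 value that is not itself a comparison of the groups, namely the authors' mean log2 CPM over all 6 kidneys. CPM scales the counts of a library to a fixed total, so that libraries of different depth can be compared. The levels below are therefore those of cystic kidneys of both genotypes as 1 pool. They have no SD and no n, the order of neighbouring genes could not be judged against the spread between mice, and the difference between DKO and SKO was not analysed here. The depth of each library is unknown.

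The respiratory chain lies in the inner mitochondrial membrane. Complex II passes electrons from succinate to ubiquinone, complex III passes them on to cytochrome c, and complex IV passes them from cytochrome c to oxygen. Complexes III and IV move protons across the membrane as they do so, and complex V lets protons flow back through a turning ring of c subunits to make ATP. Tubule cells of the kidney are rich in mitochondria because salt reabsorption uses much ATP. Genes of the mitochondrial DNA encode further subunits of complexes III, IV and V, and complex II has none of these.

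The c subunit of complex V shows why levels of related genes must be read with their sequences at hand. Mice have 3 genes for it, which differ in the import peptide at the front of the precursor. Their coding sequences end in the same mature protein. The last 225 bases before the stop codon are printed for each gene, read from GENCODE transcripts on GRCm38, 5′ to 3′ on the coding strand. *Atp5g1* lies at chr11:96072990-96075619 on the minus strand, *Atp5g2* at chr15:102662864-102671127 on the minus strand and *Atp5g3* at chr2:73908447-73911326 on the minus strand. Capitals mark bases of *Atp5g2* and *Atp5g3* that differ from *Atp5g1*.

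Atp5g1: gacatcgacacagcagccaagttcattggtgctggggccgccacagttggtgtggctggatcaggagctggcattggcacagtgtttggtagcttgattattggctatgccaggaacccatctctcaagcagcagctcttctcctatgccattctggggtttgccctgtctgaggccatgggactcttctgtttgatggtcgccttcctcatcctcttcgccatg

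Atp5g2: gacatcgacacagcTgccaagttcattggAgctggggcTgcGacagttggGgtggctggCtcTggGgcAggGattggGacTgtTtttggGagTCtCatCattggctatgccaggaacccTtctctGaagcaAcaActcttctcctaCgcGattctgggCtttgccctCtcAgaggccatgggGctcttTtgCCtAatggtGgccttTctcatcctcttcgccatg

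Atp5g3: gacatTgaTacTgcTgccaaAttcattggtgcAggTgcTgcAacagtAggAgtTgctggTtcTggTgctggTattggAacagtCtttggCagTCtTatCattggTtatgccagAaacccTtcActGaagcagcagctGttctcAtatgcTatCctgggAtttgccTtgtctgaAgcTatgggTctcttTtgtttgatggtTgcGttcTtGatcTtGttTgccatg

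The 3 stretches encode 75 identical amino acids, with 0 differences between any pair. At the level of bases *Atp5g2* differed from *Atp5g1* at 34 positions and *Atp5g3* differed from *Atp5g1* at 45. *Atp5g2* and *Atp5g3* differed from each other at 48 positions. Along these stretches 0 of the 175 possible windows of 51 bases, the read length of the study, were shared by any pair. A read inside this coding stretch that was free of errors would thus tell the 3 genes apart.

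The level of a gene was expressed as mean CPM per kilobase of spliced transcript, so that short and long genes could be compared. Over the 12576 genes of known length whose mean CPM was 1 or more, the median level was 4.399 CPM per kilobase, and the central 50% of genes lay between 1.959 and 9.812. The 40 structural subunits of complexes II to V had a median of 136.2 CPM per kilobase, which is the level at the 98.67th percentile of those genes. All 40 lay above the 75th percentile and 39 above the 90th. The exception was *Cox7a1*, the heart and muscle form of a complex IV subunit. Ranked by CPM without division by length, *Cox7a1* was at the 26.05th percentile, below the median gene. *Atp5e*, *Cox7c*, *Atp5j2*, *Atp5k* and *Atp5g2* then lay below the 90th too, at 77.63 to 87.97. The medians of complexes II, III, IV and V were then at percentiles 96.07, 95.22, 97.29 and 96.

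**Figure D1:**
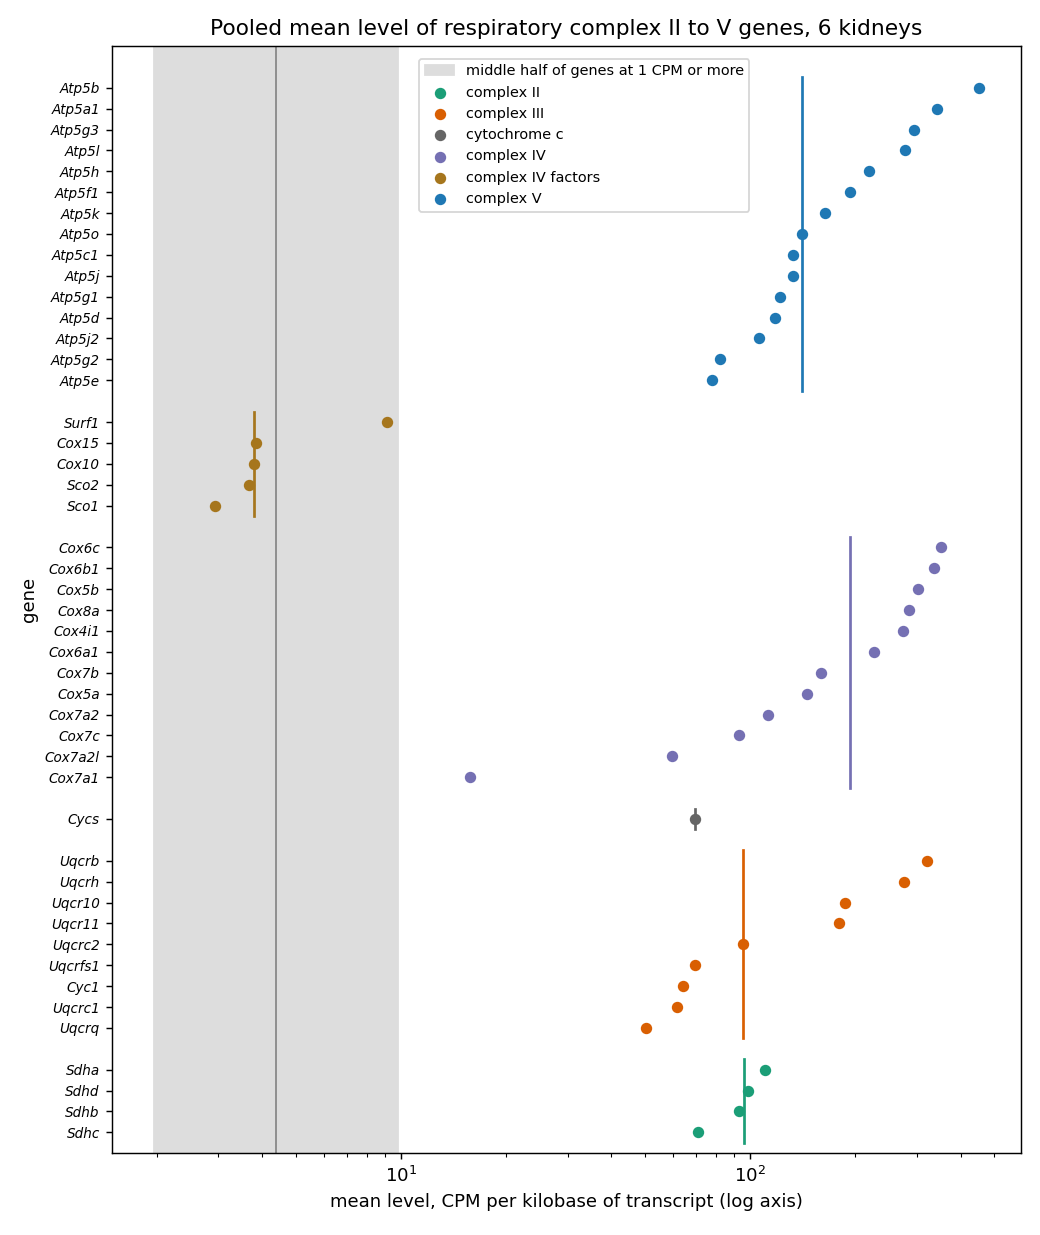
Authors' mean level of each member over the 6 kidneys, in CPM per kilobase on a log axis, with 1 point per gene and a vertical line at the median of each complex. The grey band spans 1.959 to 9.812 CPM per kilobase, the central 50% of 12576 genes, with a line at their median of 4.399; the structural subunits lie to the right of it and the 5 complex IV factors within it.

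Complexes II and III had nearly equal medians, and those of complexes V and IV were higher. The median was 95.69 CPM per kilobase in complex II, 95.62 in complex III, 192.7 in complex IV and 140.2 in complex V. Complex IV was the highest of the 4 under each of 7 ways of computing a level, unless the 5 factors were counted with it. The order of the others depended on the way chosen. These 7 ways included the mean over subunits in place of the median. They also included the lowest RefSeq mRNA transcript and subtraction of the lowest mean CPM, which hardly changed the medians. Genes are not replicates of a complex, so these medians were not tested against each other. For comparison, 36 symbols of complex I, which passes electrons from NADH to ubiquinone, had a median of 59.86 CPM per kilobase and ran from 19.87 for *Ndufv3* to 172.5 for *Ndufb8*. Of these, 36 lay above the 75th percentile of genes and 34 above the 90th.

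Per kilobase of transcript, complex II was the most even of the 4. *Sdha*, the flavoprotein that oxidises succinate, had a level of 109.9 CPM per kilobase. *Sdhb*, the iron-sulfur protein next to it, had 92.92. The membrane anchors *Sdhc* and *Sdhd*, which hold the ubiquinone site, had 70.82 and 98.46. The highest was thus 1.552 times the lowest. Without division by length the ratio was 3.763, above the 2.348 of complex III, because *Sdha* has a transcript of 2859 bases against 1074 to 1231 for the other genes and collected 314.2 CPM. The *Sdhc* value also depended on the end of the transcript model, which is 3171 bases in GENCODE and was shortened to 1179 at the end of the RefSeq gene. With the lengths not shortened the ratio in complex II was 4.114.

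Complex III fell into large subunits of lower level and small subunits of higher level. The core proteins *Uqcrc1* and *Uqcrc2*, which face the matrix, had 61.86 and 95.62 CPM per kilobase. The redox subunits were close to them. The Rieske iron-sulfur protein *Uqcrfs1* had 69.4 and the cytochrome c1 gene *Cyc1* had 64.09. The 5 small accessory subunits had a median of 187.2, with 321.5 for *Uqcrb*, 275.5 for the hinge protein gene *Uqcrh*, 187.2 for *Uqcr10* and 179.7 for *Uqcr11*. *Uqcrq* was the exception at 50.39, the lowest of the complex. Its transcript is 1521 bases with only 246 coding, and per kilobase of coding sequence it had 311.5 CPM, more than the core and redox subunits, which had 70.36 to 132.4. In CPM without division by length, the highest gene of complex III was only 2.348 times the lowest. The contrast between large and small subunits is therefore one of level per length.

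*Cycs*, cytochrome c, carries electrons from complex III to complex IV. Its level was 69.39 CPM per kilobase, 1.083 times that of *Cyc1*, its partner in complex III. The transcript is 3123 bases with 315 coding. Per kilobase of coding sequence *Cycs* had 687.9 CPM, which placed it at the 99.81st percentile instead of the 97.06th.

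Among the nuclear subunits of complex IV, *Cox6c* had the highest level with 351.9 CPM per kilobase. *Cox6b1* followed with 335, *Cox5b* with 301.8, *Cox8a* with 284.2 and *Cox4i1* with 273.6. These genes encode small proteins that surround the catalytic core, and the core itself comes from mitochondrial DNA, whose genes were not listed under the symbols searched and are not analysed here. Lower in the same complex were *Cox6a1* with 226.3, *Cox7b* with 159.1, *Cox5a* with 145.1, *Cox7a2* with 112.5 and *Cox7c* with 92.69. *Cox7a2l*, which helps to join complexes III and IV into supercomplexes, had 59.78. *Ndufa4*, once counted with complex I and now known to belong to complex IV, was no listed member and had 266.1 CPM per kilobase, between *Cox4i1* and *Cox6a1*.

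Several complex IV subunits have a second gene used in heart, skeletal muscle, lung or testis. In these kidneys the widely expressed gene had the higher level in each pair. *Cox4i1* was 404.5 times as high as *Cox4i2*, which had 0.6765 CPM per kilobase, and *Cox6a1* was 386.9 times as high as *Cox6a2*, which had 0.5849. Mean CPM was only 0.4918 for *Cox4i2* and 0.3854 for *Cox6a2*, under the limit of 1 CPM used elsewhere, so both folds are rough. *Cox6b1* was 57.38 times *Cox6b2* and *Cox8a* was 54.22 times *Cox8b*. *Cox7b2* and *Cox8c* had the lowest mean CPM that the table holds, 0.02634, so no fold is given for them. The narrowest gap was that of *Cox7a2* over *Cox7a1*, 7.118 times, with *Cox7a1* at 15.8 CPM per kilobase or 5.784 CPM.

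**Figure D2:**
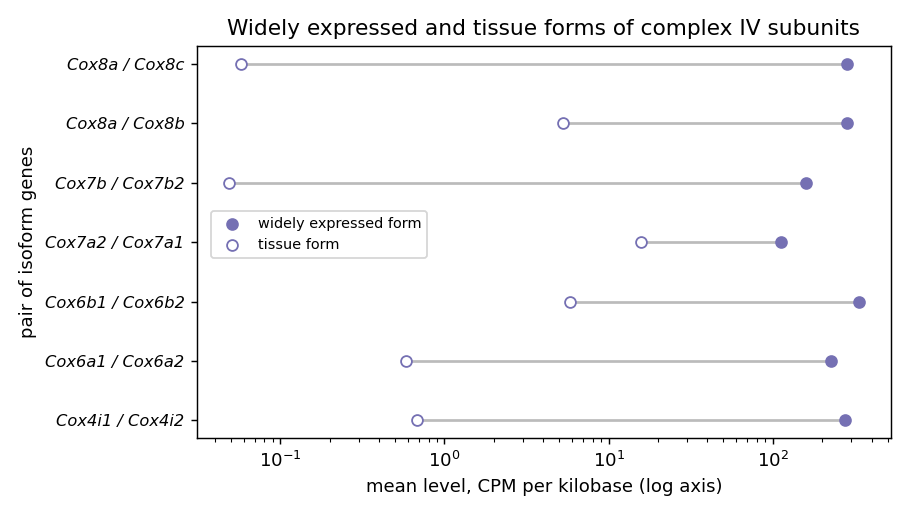
Levels of the widely expressed gene (filled) and the tissue form (open) of complex IV subunits, as the authors' mean over 6 kidneys in CPM per kilobase on a log axis; a line joins each pair. Cox7b2 and Cox8c are drawn at the lowest mean CPM of the table, and Cox7a1 at 15.8 is the tissue form nearest to its partner.

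*Cox7a1*, *Cox7a2* and *Cox7a2l* are related genes, but their coding sequences are distinct. *Cox7a1* was identical to *Cox7a2* at 64.4% of aligned bases and to *Cox7a2l* at 66.2%, and *Cox7a2* was identical to *Cox7a2l* at 73.7%. They had 0 windows of 51 bases in common. The skeletal and cardiac muscle genes *Ckm* and *Myh6* stood at 0.05732 and 0.1714 CPM. Of the fat genes, *Ucp1*, the uncoupling protein of brown fat, had 19.78 CPM, *Cidea* had 6.676, *Adipoq* 5.824, *Plin1* 2.14 and *Elovl3* 0.0571. Per kilobase *Ucp1* had 12.09 CPM, at the 79.63rd percentile of genes, and *Cidea* and *Adipoq* were above the median gene too. *Cox8b*, a muscle and brown fat form, had 1.887 CPM. The part of fat tissue in the levels of *Cox7a1* and *Cox8b* was not tested.

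The 5 complex IV factors stood far below the subunits they serve, with a median of 3.793 CPM per kilobase. *Cox10* and *Cox15*, which make heme A, had 3.793 and 3.836. *Sco1* and *Sco2*, which deliver copper, had 2.933 and 3.681. *Surf1*, an assembly protein, had 9.146. The median of the factors was at the 44.81st percentile of genes, and 4 of the 5 lay below the median gene. Counting them as members of complex IV lowered its median from 192.7 to 112.5, below that of complex V. Of 20 other assembly factors and regulators fixed as a list, 15 were listed, with a median of 5.846 CPM per kilobase. They ran from 0.4845 for *Lyrm7*, a complex III assembly factor, to 213.4 for *Atpif1*, which encodes the protein that inhibits the ATP synthase when it runs backwards.

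*Atp5b*, the catalytic beta subunit of the F1 head, had 452.5 CPM per kilobase (chr10:128083273-128090391, plus strand, 10 exons), and *Atp5a1*, the alpha subunit, had 341.6. Per kilobase of transcript *Atp5b* was the highest of the 46 members, and *Cox6c* of complex IV stood between it and *Atp5a1*. Per kilobase of coding sequence *Cox6c*, at 776.2 CPM, was above both, which had 535.8 and 500.7. The beta and alpha subunits are present in several copies per head. The gamma subunit *Atp5c1*, which turns within the head, had 132.2 CPM per kilobase of transcript, the delta subunit *Atp5d* had 117.8 and the epsilon subunit *Atp5e* had 77.7. Each of these is present in a single copy, and whether levels follow copy number was not tested. *Atp5b* was 1.325 times *Atp5a1* and 3.423 times *Atp5c1*. In CPM without division by length, *Atp5b* at 850.3 and *Atp5a1* at 830.7 were the highest of the 46 members, of which 24 exceeded 100 CPM.

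The peripheral stalk, which keeps the head from turning with the ring, was the most even group of complex V. Its genes had 219 (*Atp5h*), 192.9 (*Atp5f1*), 140.2 (*Atp5o*) and 132.2 (*Atp5j*) CPM per kilobase, the highest being 1.657 times the lowest. The accessory genes of the membrane part had 277.4 (*Atp5l*), 164.1 (*Atp5k*) and 105.8 (*Atp5j2*).

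The 3 genes of the c subunit, whose coding ends are printed above, were unequal. *Atp5g3* had 293.8 CPM per kilobase, *Atp5g1* had 122 and *Atp5g2* had 81.9. *Atp5g3* was 2.407 times *Atp5g1* and 3.587 times *Atp5g2*. Of the summed level of 497.7, *Atp5g3* gave 59.03%, *Atp5g1* gave 24.52% and *Atp5g2* gave 16.45%. The sum was 1.1 times the level of *Atp5b*. These shares are of RNA with equal coding ends and say nothing of the protein each gene yields.

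The kidney itself was checked by its markers. Proximal tubule genes ran from 20.54 CPM per kilobase for *Slc22a6* to 423.4 for *Slc34a1*, the phosphate transporter, and the thick ascending limb genes *Slc12a1* and *Umod* had 133.1 and 389.5. *Cdh16*, whose promoter drives Cre, had 167.2. Levels were lower for the podocyte gene *Nphs1*, at 2.815, and for the endothelial gene *Pecam1*, at 16.05. *Alb*, a liver gene, had 13.37 CPM, which is 6.575 CPM per kilobase, at the 63.58th percentile of genes and so above the median gene. Respiratory subunits are used in all these cell types, and in total kidney RNA fewer cells of a type and less RNA per cell cannot be told apart.

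The table listed more than 1 transcript for many members. The 46 genes had 82 transcripts, with 22 genes on a single one and 24 on several. In 16 of the 24 the values lay within 5% of each other, and in 5 they differed by more than 1.5 times. For *Sdhc* the RefSeq transcript had 83.5 CPM and transcripts assembled by the authors from the reads had 37.68 and 26.3, a ratio of 3.175. The ratio was 2.227 in *Uqcrh*, 1.889 in *Cox5b* and 1.739 in *Cox7a2*. In *Atp5h* the RefSeq transcript and an assembled one both had 127 CPM and another assembled one had 0.325. The highest transcript was used for each gene. It was an assembled one in 11 members and a non-coding RefSeq transcript in *Surf1*. How reads were divided among overlapping transcripts is not given in the sources used here, so these values may count the same reads more than once. With the lowest RefSeq mRNA transcript of each gene in place of the highest transcript, the median was 95.69 CPM per kilobase in complex II, 95.58 in complex III, 192.7 in complex IV and 140.2 in complex V.

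**Figure D3:**
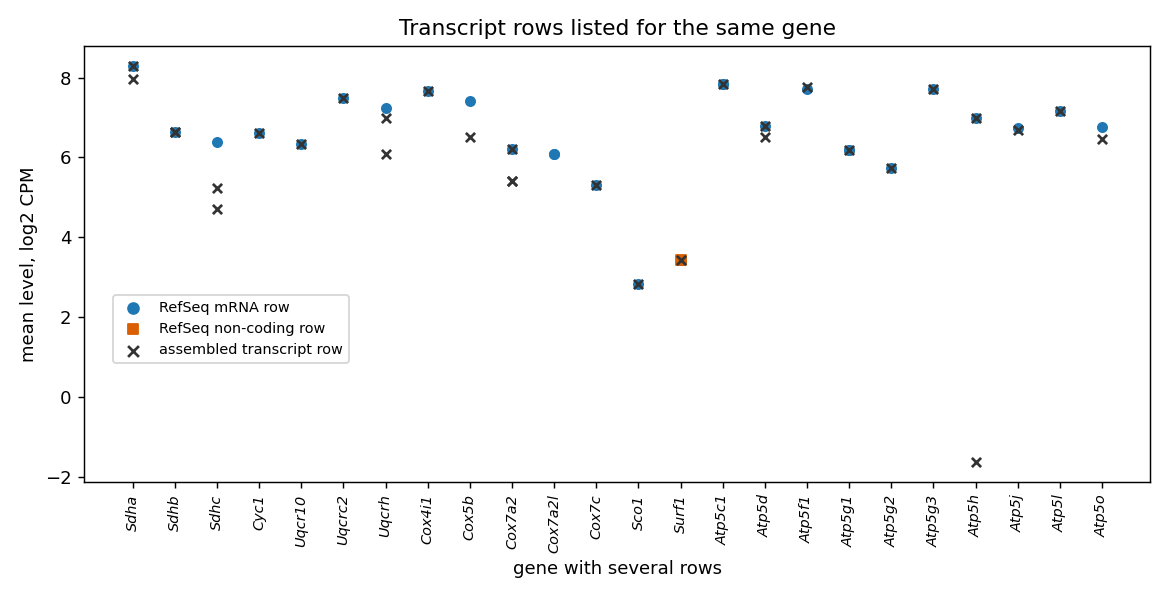
Mean log2 CPM over 6 kidneys of each transcript listed for the 24 members with several transcripts; circles are RefSeq mRNAs, squares non-coding RefSeq transcripts and crosses transcripts assembled from reads. Most symbols of a gene coincide, and Sdhc, Uqcrh, Cox5b, Cox7a2 and Atp5h are the genes whose transcripts differ by more than 1.5 times.

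Many nuclear genes of the respiratory chain have processed pseudogenes, copies of their mRNA set back into the genome, and reads that match both a gene and its copy are given a low mapping quality. The authors discarded alignments of mapping quality under 10. To see where this may bear on the levels, each 51-base window of a member's transcript was sought in other genes. The search covered the transcripts of all other genes in GENCODE, on either strand. Neighbouring genes that overlap a member are thus counted with its copies, and the shares are not those of discarded reads. In 19 of 46 members (41.3%) over 10% of windows were shared, against 18.44% of the 12576 genes, and in 6 members (13.04%) over 50% were shared, against 4.103%. The 6 were *Sco2* with 100%, *Atp5g2* with 87.37%, *Atp5l* with 84.82%, *Atp5g1* with 65.75%, *Cox7c* with 52.86% and *Atp5h* with 50.09%. A pseudogene was among the sharing genes in 21 members, with 12 pseudogenes for *Atp5l* and 10 for *Cycs*. Some of the 21 shared few windows, such as *Cox7b* with 0.5258%. The share of all genes that match a pseudogene was not computed, so this count has no reference. No window was shared in 16 members, among them *Sdha*, *Uqcrc1*, *Cox6b1*, *Cox8a*, *Atp5d* and *Atp5g3*. Sharing none is common, as the median over the 12576 genes was 0%, against 3.633% over the members.

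The c subunit genes differed in this respect too. *Atp5g3* shared 0% of its windows, while *Atp5g1* shared windows with 3 pseudogenes and *Atp5g2* with 2, and none of the 3 shared any with another along the printed coding ends. The gene with the highest level was thus the one whose reads all had a single place among annotated transcripts. The part of discarded reads in the order of these 3 genes was not tested. *Sco2* shared all its windows with the genes Ncaph2 and Tymp, which overlap it in the annotation, and not with a pseudogene, and its level of 3.681 is uncertain for that reason.

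Among the 40 structural subunits the median level was 112.5 CPM per kilobase in the 23 that shared up to 10% of windows, 186.3 in the 12 between and 122 in the 5 that shared over 50%. Restricted to members with up to 10% shared, the median was 95.69 in complex II (4 genes) and 66.75 in complex III (6 genes). It was 159.1 in complex IV (5 genes) and 148.1 in complex V (8 genes), a smaller margin. This set aside 7 of 12 complex IV genes, and 159.1 is the level of 1 gene, *Cox7b*. The genes left are too few to decide the order of complexes IV and V. The limit also set aside members that shared windows with no pseudogene, namely *Uqcrc2*, *Cox4i1* and *Cox5b*.

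**Figure D4:**
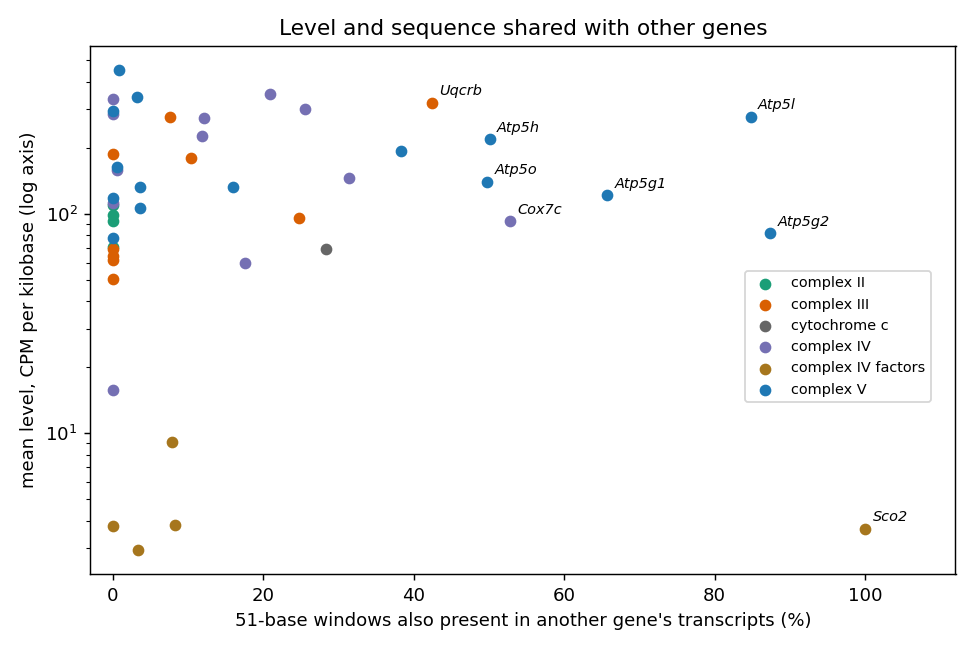
Level of each member (authors' mean over 6 kidneys, CPM per kilobase, log axis) against the percentage of its 51-base windows also found in transcripts of other genes, coloured by complex. Points over 40% are named; Atp5g2, Atp5l and Atp5g1 share most of their windows and Atp5g3, at 293.8, shares none.

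Nuclear genes of the respiratory chain are known to be driven by NRF1, by GABPA of the ETS family (also known as NRF2), by YY1 and by the estrogen-related receptors (ERR), which act with the coactivator PGC-1alpha. Promoters of 300 bases, from 250 before to 50 after a transcription start, were available from RefSeq on GRCm38.p6 for 38 of the 46 members and for 10048 of the genes with at least 1 CPM. They were searched on both strands for short cores. The promoters of 3 members that hold several of these cores are printed, 5′ to 3′ in the direction of transcription, with matches to the NRF1, ETS, YY1 and ERR cores in capitals. They belong to *Sdhd* (chr9:50603800-50604099, minus strand), *Atp5g3* (chr2:73911277-73911576, minus strand) and *Cox6a1* (chr5:115348909-115349208, minus strand).

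Sdhd: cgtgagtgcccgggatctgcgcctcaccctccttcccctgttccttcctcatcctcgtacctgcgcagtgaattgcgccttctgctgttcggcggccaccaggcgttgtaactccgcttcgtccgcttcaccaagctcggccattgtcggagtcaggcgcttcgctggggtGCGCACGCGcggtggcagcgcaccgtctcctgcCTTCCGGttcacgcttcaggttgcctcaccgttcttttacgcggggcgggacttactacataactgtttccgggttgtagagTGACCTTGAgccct

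Atp5g3: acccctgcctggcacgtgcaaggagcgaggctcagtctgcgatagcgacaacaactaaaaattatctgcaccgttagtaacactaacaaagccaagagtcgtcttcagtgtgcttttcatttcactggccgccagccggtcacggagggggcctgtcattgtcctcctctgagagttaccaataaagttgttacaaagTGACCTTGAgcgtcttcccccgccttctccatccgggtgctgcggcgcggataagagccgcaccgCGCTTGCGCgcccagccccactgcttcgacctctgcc

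Cox6a1: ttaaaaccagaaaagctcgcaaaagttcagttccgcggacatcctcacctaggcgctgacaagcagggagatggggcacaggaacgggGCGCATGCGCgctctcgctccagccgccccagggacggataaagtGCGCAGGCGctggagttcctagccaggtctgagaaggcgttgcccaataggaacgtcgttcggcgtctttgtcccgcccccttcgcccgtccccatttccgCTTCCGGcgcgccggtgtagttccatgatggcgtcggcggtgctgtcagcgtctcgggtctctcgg

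With the start base as 0, the *Sdhd* promoter held an NRF1 core at -79, an ETS core at -46 and an ERR core at 36. The *Atp5g3* promoter held an ERR core at -52 and an NRF1 core at 13. In *Cox6a1* the NRF1 core stood at -162, -161 and -117 and the ETS core at -16. The core GCGCANGCG can match at adjacent positions on opposite strands, which is how the first pair in *Cox6a1* arose.

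The NRF1 core (GCGCANGCG) occurred in 13 of 38 members (34.21%) and in 13.81% of 10048 genes. The ETS core (CCGGAAG) occurred in 15 (39.47%) against 18.34%, and the YY1 core (AAGATGG) in 4 (10.53%) against 7.166%. At least 1 of these 3 cores was present in 25 members (65.79%) and in 33.99% of genes. The ERR core (TCAAGGTCA) occurred in 2 members, *Sdhd* and *Atp5g3* (5.263%), and in 24 genes in all (0.2389%). The Sp1 core (GGGCGG) was found in 17 members (44.74%) against 65.6%, and the letters TATAAA in 2 (5.263%) against 7.096%. Median GC content was 58.83% in members and 61.33% in all genes.

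Counts of promoters by complex were small and were not tested against each other. Over all 10048 genes the share was 13.81% for the NRF1 core, 18.34% for the ETS core and 65.6% for the Sp1 core. The NRF1 core was present in 7 of 14 complex V promoters, namely those of *Atp5c1*, *Atp5h*, *Atp5o*, *Atp5g2*, *Atp5g3*, *Atp5k* and *Atp5l*, and in 1 of 10 complex IV promoters, that of *Cox6a1*. The promoter of *Sdha* held it at -98, -55 and -10 and that of *Cycs* at -61. The ETS core was present in 4 of the 5 complex IV factors, the exception being *Sco2*, and in 3 of 10 complex IV subunits, *Cox6a1*, *Cox6b1* and *Cox8a*. All 5 factors held the Sp1 core, against 0 of 5 in complex III. A match is a run of letters in this window, and its use in these kidneys was not measured.

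**Figure D5:**
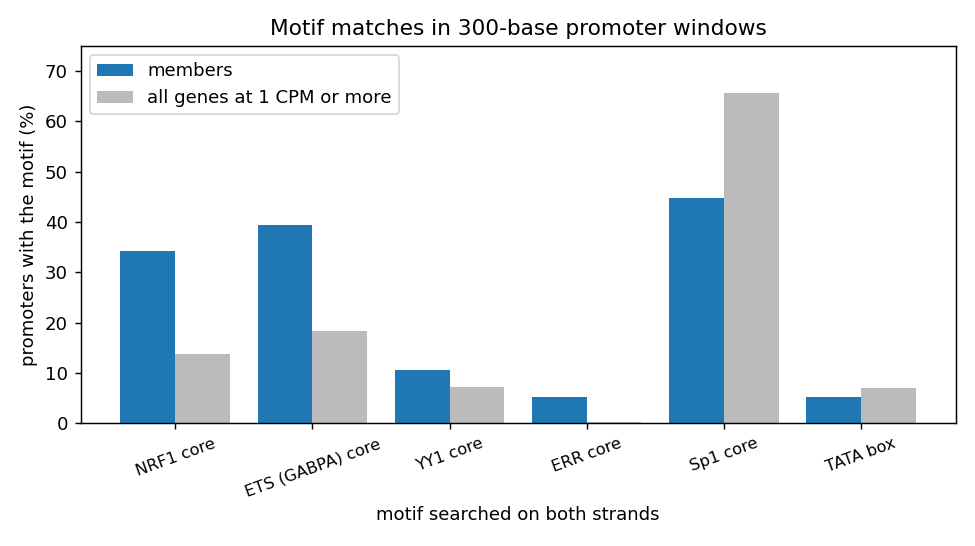
Percentage of 300-base promoters that hold each core on either strand, for 38 members (blue) and 10048 genes whose mean CPM was 1 or more (grey), with the vertical axis from 0. Members stand higher for the NRF1 and ETS cores, at 34.21% and 39.47% against 13.81% and 18.34%, and lower for the Sp1 core.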

How the data were processed

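Total kidney RNA of 3 SKO and 3 DKO mice was read as 51 bp single-end strand-specific reads. After trimming by the authors they were aligned to mm10 by TopHat, guided by the iGenomes annotation, and alignments of mapping quality under 10 were dropped. The submitters' processing notes name bcl2fastq 1.8.4, TopHat2 2.0.12, Cufflinks, featureCounts, Subread 1.4.6 and edgeR 3.2.4. The deposited values used here are the authors' mean log2 CPM over all 6 libraries, 1 for each of 54721 transcripts. Each value was taken back from the log scale, and the result is what is called mean CPM here. The 4 other columns hold the authors' own comparison of DKO with SKO (a log2 fold change, a statistic, a p-value and an adjusted p-value) and were not used. The planned test of that difference could not be run without values for single samples. No depth or interval can be given.

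For each gene the transcript of highest mean CPM was taken. That CPM was divided by the spliced length, in kilobases, of the GENCODE M21 transcript (GRCm38, the assembly of mm10) matched to the gene's highest RefSeq mRNA. Exons were shortened to the RefSeq ends of the gene, a step added after the table was seen. Genes were placed among the 12576 with at least 1 CPM and a length, of 13001 with at least 1 CPM. The members, lists and comparisons were chosen with earlier results of these data known. The motif cores, the limits of 10% and 50% shared windows and the fat genes were chosen after values were seen, and the fat genes after that of *Ucp1*. Every member is named. Other lists are given by their range with the ends named, and all tissue isoforms are named. Levels, window sharing and motif search were checked on simulated data. No p-value was computed. Python 3.11.15, numpy 2.4.6, pandas 2.3.3, biopython 1.88 and matplotlib 3.10.9 were used.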

Additional observations from a re-analysis of the deposited data

How the results depend on the processing

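Of 64 alternative values of the medians, percentiles and ratios, 51 stayed within 1.5 times of the reported value and 13 moved further. The count of 51 says little by itself. Percentiles of 97.96 to 99.25 could not rise 1.5 times, and subtracting the lowest mean CPM, 0.02634, could hardly move a median. Medians without division by length were in CPM and were set against CPM per kilobase. Coding length in place of transcript length raised the median to 161.2 CPM per kilobase in complex II, 311.5 in complex III, 381.3 in complex IV and 263 in complex V. Without division by length the ratio of the highest to the lowest subunit was 3.763, 2.348, 35.1 and 26.43 in complexes II, III, IV and V. With GENCODE lengths not shortened, which was added after the data were seen, this ratio was 4.114 in complex II and 9.361 in complex V. The arithmetic mean over complex III was 145. The median of complex IV with the 5 factors was 112.5, and its ratio without *Cox7a1* was 5.885. These shifts follow from the lengths, members or summary exchanged. Complex IV was highest in 7 of 7 ways of computing the level. Complex II was lowest in 3 and complex III in 4. No paired analysis was possible because values for single samples were not used here, the table giving means over all 6. A fit with DESeq2 and fits without each replicate in turn, both intended, were not run for the same reason.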
